A study of Mus musculus with 4 samples.

Results

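The genes described here are 40 apoptosis regulators and caspases: death receptors and their adaptors, BCL2 family members, caspases, and the inhibitors and release factors that act on them. The rule lists them by name and uses no measured value. Of the 40, 39 had at least 1 probe under their own name on the array, among 37074 gene names in all, and 38 gave a signal that could be tested. Bcl2a1b had no probe of its own name.

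Apoptosis can start at the cell surface or at mitochondria. Ligand-bound death receptors gather adaptors that activate caspase-8, while the balance between protective and death-promoting BCL2 proteins sets whether mitochondria release cytochrome c, which builds the APAF1 apoptosome and activates caspase-9. Inhibitor of apoptosis proteins (IAPs) restrain caspases or the complexes that activate them, and the same receptor complexes can instead lead to necroptosis through RIPK3 and MLKL. In the testis, germ cells are lost by apoptosis throughout normal spermatogenesis, and FAS and the BCL2 family are among the best known regulators of that loss.

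The study measured mRNA in GC-1 cells, an immortalised mouse spermatogonial line, transiently transfected in one of 2 ways. One group received the Hdac6 vector, a pCMV plasmid in which a CMV promoter drives murine Hdac6 with a myc/DDK tag, and the other received the empty vector. Hdac6 encodes a mainly cytoplasmic deacetylase of tubulin and other proteins. All cells were harvested 48 h after transfection, and each group had 2 arrays and the precision is that of so few arrays. Whether the 2 arrays of a group are separate cultures is not in the labels, and a p-value here therefore reflects the spread among these samples alone, which may be technical.

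A level is the log2 processed signal of a probe minus the 75th percentile of its array, so 0 is the signal that 75% of probes stay under. Levels were compared between arrays for the same probe, and the levels of different genes were not compared. Across the 4 arrays 61.0% to 66.4% of non-control spots carried the scanner software's flag for a signal well above background. The 1 Hdac6 probe read 2.62 and 3.24 with the Hdac6 vector, against 3.31 and 2.83 with the empty vector, a 0.909-fold difference (95% interval 0.578 to 1.43, limma adjusted p = 1.00). The probe lies on the X chromosome (mm9, 7507249 to 7507308, minus strand), and whether the plasmid's insert holds its target was not tested, so overexpression could not be checked with it. The array for Hdac6 vector 1 stood closest to empty vector 2, with 1.22% of tested probes at least 2-fold apart, against 5.34% to 7.67% for the other 5 pairs. Of the germ cell markers, 4 of 8 were well above background on all 4 arrays, and Dazl and Kit were so on none. The same held for 3 of 6 Sertoli markers, 1 of 4 Leydig markers, 6 of 7 fibroblast or peritubular markers and 5 of 6 macrophage or leukocyte markers. Markers of several other cell types, leukocytes included, were thus present beside the germ cell ones, and some defining markers of each type were absent. The 4 germ cell markers read -5.22 to -4.47 (Zbtb16), -4.31 to -3.29 (Id4), -2.50 to -2.25 (Sall4) and 3.39 to 4.53 (Uchl1). Markers of the other types counted above read -3.76 to 7.09 (Sertoli) and -2.73 to -2.00 (Leydig). The fibroblast or peritubular ones read -2.35 to 7.26 and the macrophage or leukocyte ones -3.25 to 4.51. Each marker was read on its probe most often well above background.

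The probes that the results below turn on are shown first, since a gene's value depended on which of its probes was read. Each line gives 30 bases of a 60-base probe, 5′ to 3′ as the deposited files hold it. Capitals mark the motif of a polyadenylation signal (AATAAA or ATTAAA), and whether a marked motif acts as one was not tested. Among the brightest probes of each gene, those of Fas (chromosome 19) and Hrk carry the widest differences between the groups. A second probe named Fas is set beside the first. The pairs for Cflar, Birc2, Birc3 and Tnfrsf10b are probes under 1 gene name that behaved differently.
Fas, chr19:34402164-34402223 (plus): atggacagttcttttcctctctatatggaa
Fas, chr4:40555124-40555183 (minus): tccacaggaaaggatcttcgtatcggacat
Hrk, chr5:118639423-118639482 (plus): ttgtacatatttgttacacttttatttaaa
Cflar, chr1:58815653-58815712 (plus): gtttcattttaaggagtcattacATTAAAg
Cflar, chr1:58770546-58770605 (plus): ggagagctgactcctgattaatgtaggaaa
Birc2, chr9:7818688-7818747 (minus): agtattgttggacatcagaagctgtcagaa
Birc2, chr9:7836811-7836870 (minus): ttggacttgtataacagttttgctttcttt
Birc3, chr9:7854409-7854468 (minus): tcagtgacctcgttataggcttactcgatg
Birc3, chr9:7866193-7866252 (minus): gggttaccaaaaATTAAAggaattgttgca
Tnfrsf10b, chr14:70184141-70184200 (plus): tggcagtgtaattacatacacaaAATAAAt
Tnfrsf10b, chr14:70183189-70183248 (plus): ggagaaataactacctttagatactgtgat
Positions are those of the files for the whole probe, build mm9. The files place 1 Fas probe on chromosome 4 and list no RefSeq transcript of Fas for it, although Fas lies on chromosome 19.

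Labelling started from oligo-dT, at the 3′ end of the mRNA, and the probe that stands for a gene here is its brightest tested one. AATAAA or ATTAAA, read on the probe's own strand, was present in 12 of the 39 probes that stand for a gene (30.8%), in 13 of the genes' 83 probes (15.7%) and in 7564 of the array's 56605 probes (13.4%). A probe with both motifs was counted once, and a match is a description of the probe alone.

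Nearly all of these genes were read in GC-1 cells. All 38 tested genes were well above background on each of the 4 arrays, and their levels ran between -5.05 and 6.15. Bik, a death-promoting BH3-only gene, was well above background on no array. Its probe read -6.33 and -6.73 with the Hdac6 vector, against -6.72 and -6.56 with the empty vector, so no fold is given for it. A probe named Bcl2a1d, which also lists a transcript of Bcl2a1b, was likewise above background on no array, at -8.14 and -7.43 with the Hdac6 vector and -8.49 and -8.13 with the empty vector. BCL2A1 proteins are protective BCL2 family members best known from blood cells.

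**Figure D1:**
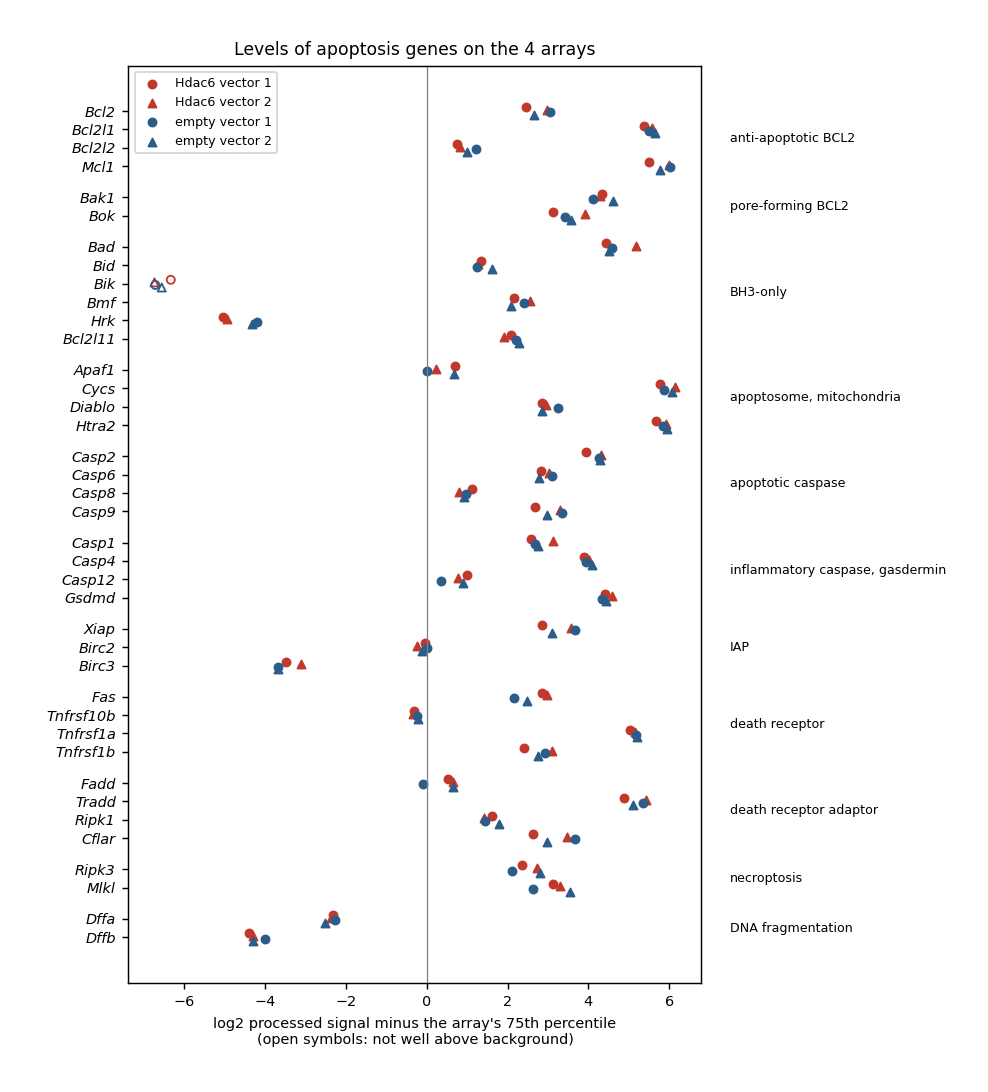
Level of each of the 39 genes on each array, as log2 processed signal minus the array's 75th percentile, with red symbols for the Hdac6 vector, blue symbols for the empty vector, and open symbols where the probe was not well above background. Within most rows the red and blue symbols interleave, and in the Fas and Hrk rows they stand apart by 0.36 and 0.61.

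No apoptosis regulator or caspase passed the test for a change with the Hdac6 vector. Of the 38 tested genes 0 passed an adjusted p of 0.05 (limma, Benjamini-Hochberg over 35214 probes), while 4 probes of the whole array did, which is 0.0114%. At an unadjusted p under 0.05 there was 1 gene, Fas, which is 2.63% of the 38, against 1.84% of 23496 gene names. Overlap of the groups was counted on the brightest probe of each gene. The 2 Hdac6 vector values lay above both empty vector values in 2 genes, Fas and Birc3 (5.26%, against 12.3% of all gene names). They lay below both in 5 genes, Bcl2l2, Hrk, Bcl2l11, Tnfrsf10b and Tnfrsf1a (13.2%, against 12.8%). Only Fas and Hrk among them had groups apart by at least 0.3 on the log2 scale (5.26%, against 3.50%). The shares of genes with groups apart were thus near or under those of the array as a whole.

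The differences were small beside the spread between arrays of 1 group. The median absolute log2 fold change over the 38 genes was 0.12, while the median gap between arrays was 0.22 for the Hdac6 vector and 0.24 for the empty vector. Over all gene names the same median change was 0.17, with median gaps of 0.33 for the Hdac6 vector and 0.27 for the empty vector. Without a group effect, a difference of means is expected to be smaller than a gap between single arrays, though not in every gene. Between arrays of opposite groups, the median difference over the 38 genes was 0.18 (Hdac6 vector 2 and empty vector 1), 0.21 (Hdac6 vector 1 and empty vector 2), 0.25 (Hdac6 vector 2 and empty vector 2) and 0.26 (Hdac6 vector 1 and empty vector 1), on both sides of the gaps within groups. The group difference exceeded both replicate gaps in 6 of 38 genes (15.8%, against 14.5% of all gene names). The interval of the fold lay within 2-fold in both directions for 34 genes, all but Fas, Hrk, Birc3 and Cflar, and within 1.5-fold for 3.

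The log2 fold changes of the 38 genes had a median of -0.08, with 14 genes higher and 24 lower, beside a median of 0.00 over all gene names. This balance depended on the setting. With the mean of all tested probes of a gene it was 22 higher and 16 lower. Without Hdac6 vector 1 it was 25 higher and 13 lower, with a median of 0.09, and the median of all tested probes was then 0.08, against 0.02 with all arrays. Median scaling lowers every gene by the same amount, bringing the median of all tested probes to -0.07, and gave 10 higher and 28 lower.

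**Figure D2:**
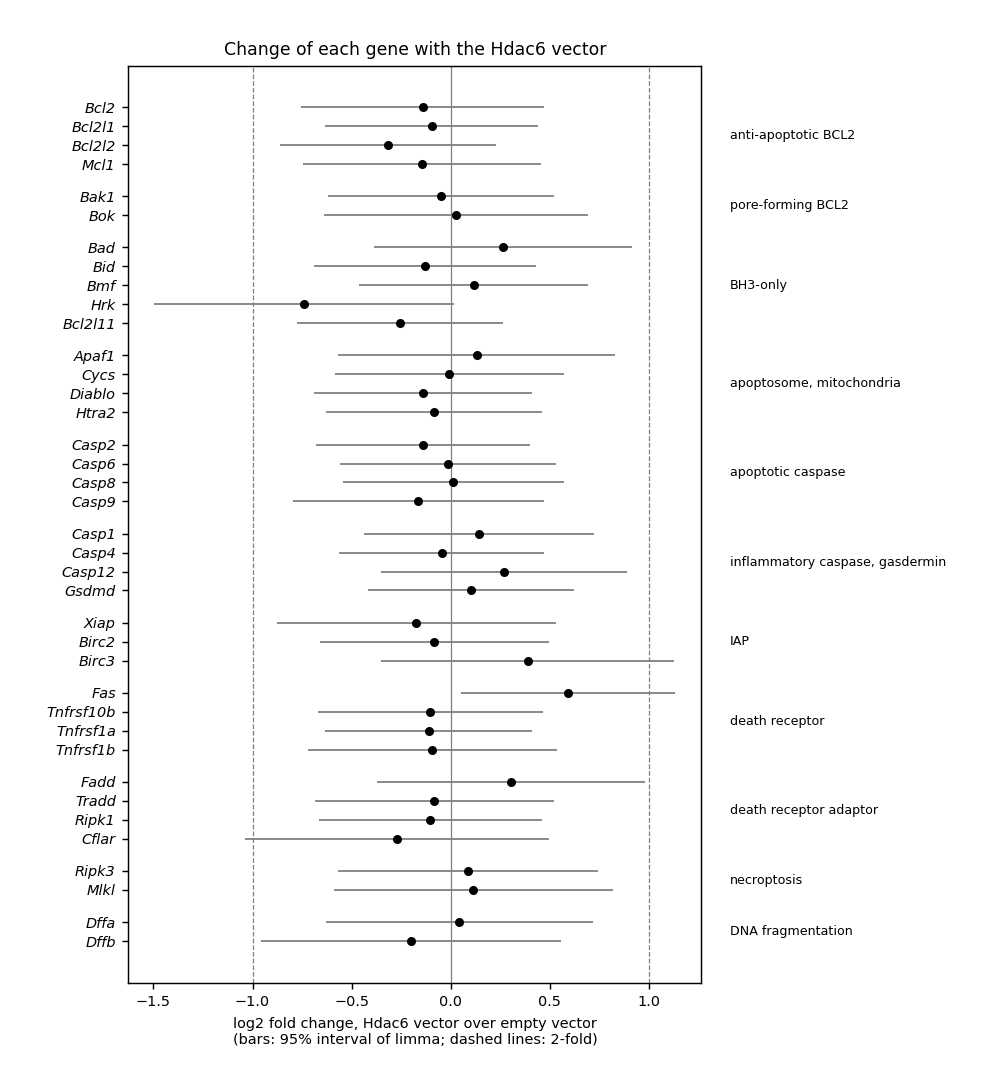
Log2 fold change of each tested gene, Hdac6 vector over empty vector, with the 95% interval from limma as a bar and dashed lines at 2-fold. The interval of Fas alone lies clear of 0, at a fold of 1.51, and 0 of the 38 genes passed the test after adjustment.

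Death receptors carry the signal from ligands outside the cell, and Fas, the receptor for FAS ligand, had the lowest p of all the genes. It read 2.84 and 2.98 with the Hdac6 vector, against 2.15 and 2.48 with the empty vector. Both Hdac6 vector arrays were above both empty vector arrays. The difference was 1.51-fold (95% interval 1.04 to 2.19, log2 0.59 ± 0.24 SE, n = 2 per group, limma adjusted p = 1.00). Its log2 difference lay between 0.36 and 0.76 over the 15 alternative settings, several of which leave the difference itself unchanged, and its lowest adjusted p was 0.582, without empty vector 2.

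A second Fas probe, the one placed on chromosome 4, read 0.95 and 0.81 with the Hdac6 vector, against 0.30 and 0.89 with the empty vector. Here the groups overlapped, and the log2 difference was 0.29. The remaining Fas probe was above background on no array. The groups were thus separate on the 1 tested probe that lists a RefSeq transcript of Fas. They overlapped on the chromosome 4 probe, which lists none, and whether that probe reads Fas was not tested.

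On their brightest probes the other death receptors differed little. Tnfrsf1a, the main receptor for tumour necrosis factor, read 5.02 and 5.15 with the Hdac6 vector, against 5.18 and 5.21 with the empty vector, 0.926-fold (0.645 to 1.33). Its groups did not overlap but lay only 0.03 apart. Tnfrsf10b, the mouse receptor for TRAIL, read -0.32 and -0.35 with the Hdac6 vector, against -0.24 and -0.22 with the empty vector, 0.931-fold (0.628 to 1.38). Tnfrsf1b, the second receptor for tumour necrosis factor, ranged between 2.40 and 3.09 on its brightest probe with overlapping groups, 0.938-fold (0.606 to 1.45). The other Tnfrsf1b probe, which lists no RefSeq transcript of the gene, read higher with the Hdac6 vector. Its log2 difference was 0.32, with groups 0.04 apart. The groups of Tnfrsf10b lay 0.07 apart.

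Among the adaptors of these receptors, Fadd links FAS and TRAIL receptors to caspase-8. It read 0.52 and 0.65 with the Hdac6 vector, against -0.09 and 0.65 with the empty vector. The array for empty vector 1 was low and the other 3 were alike. The 1.23-fold difference (0.772 to 1.97, limma adjusted p = 1.00) turned to a log2 value of -0.07 without that array. Cflar, which encodes the caspase-8 inhibitor c-FLIP, read 2.63 and 3.47 with the Hdac6 vector, against 3.67 and 2.98 with the empty vector. Each group held 1 high and 1 low array, and the difference was 0.827-fold (0.486 to 1.41, adjusted p = 1.00).

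Ripk1, a kinase of the tumour necrosis factor receptor complex, read 1.62 and 1.42 with the Hdac6 vector, against 1.44 and 1.80 with the empty vector. The groups overlapped, at 0.931-fold (0.631 to 1.37, adjusted p = 1.00). Tradd, the adaptor that recruits RIPK1 to that receptor, ranged between 4.88 and 5.42, at 0.944-fold (0.621 to 1.43). For the necroptosis genes, Ripk3, the kinase that phosphorylates MLKL, lay between 2.12 and 2.80 (1.06-fold, 0.674 to 1.67). Mlkl, which permeabilises the plasma membrane, lay between 2.64 and 3.55 (1.08-fold, 0.664 to 1.76). In both necroptosis genes empty vector 1 was the lowest array and empty vector 2 the highest, so the spread within the control group enclosed the Hdac6 vector values.

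All 4 tested protective BCL2 genes read lower with the Hdac6 vector on their brightest probes, and 0 of them passed the test. Bcl2l2, which encodes BCL-W, a survival factor of male germ cells in mice, had the smallest p among them. It read 0.75 and 0.84 with the Hdac6 vector, against 1.22 and 1.00 with the empty vector. The groups lay 0.16 apart, and the difference was 0.803-fold (0.550 to 1.17, limma adjusted p = 1.00). Its log2 value stayed between -0.43 and -0.21 under the alternative settings.

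On their brightest probes the other 3 protective genes had overlapping groups. Bcl2 ranged between 2.45 and 3.05 (0.906-fold, 0.592 to 1.39), Bcl2l1, the gene of BCL-XL, between 5.38 and 5.65 (0.935-fold, 0.644 to 1.36), and Mcl1 between 5.51 and 6.02 (0.906-fold, 0.597 to 1.37). Without Hdac6 vector 1, whose value was the lowest of the 4 arrays in each of these 3 genes, their log2 differences were 0.12, 0.0039 and 0.10, on the other side of 0. Among the protective genes Bcl2l2 alone stayed lower without that array. The other tested probes of Bcl2 (log2 0.03 and 0.30), Bcl2l1 (0.13 to 0.30) and Mcl1 (0.04) read higher with the Hdac6 vector. The Mcl1 probe at 0.04 lists a RefSeq transcript of the gene, and the brightest Mcl1 probe does not. The Bcl2 probe at 0.30 lists none of its gene either. On the Bcl2l1 probe with 0.30 the groups lay 0.09 apart. Bcl2l2 had 1 probe.

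The pore-forming members that permeabilise mitochondria, Bak1 and Bok, had folds of 0.967 (0.652 to 1.43) and 1.02 (0.643 to 1.62). Bak1 lay between 4.12 and 4.60 and Bok between 3.12 and 3.93, and in Bok the 2 Hdac6 vector arrays were the lowest and the highest of the 4. Neither gene separated the groups.

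BH3-only proteins trigger death by binding other BCL2 proteins, and Hrk had the widest gap between groups of all the genes. It read -5.05 and -4.94 with the Hdac6 vector, against -4.19 and -4.33 with the empty vector. Both Hdac6 vector arrays were below both empty vector arrays, by 0.61 at the closest. The difference was 0.599-fold (95% interval 0.355 to 1.01, log2 -0.74 ± 0.34 SE, limma adjusted p = 1.00). These are dim signals, and under normexp background correction the log2 difference was -0.10. The gene's second probe was above background on no array.

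Bcl2l11, which encodes BIM, read 2.08 and 1.91 with the Hdac6 vector, against 2.21 and 2.28 with the empty vector. Its groups lay 0.13 apart, at 0.838-fold (0.584 to 1.20, adjusted p = 1.00). On the other tested probes of Bcl2l11 the groups overlapped, with log2 differences between -0.005 and 0.08. Bad, whose product is held inactive by phosphorylation, read 4.43 and 5.19 with the Hdac6 vector, against 4.59 and 4.50 with the empty vector. Only Hdac6 vector 2 was high, and the 1.20-fold difference (0.763 to 1.88, adjusted p = 1.00) was -0.12 on the log2 scale without it. Bid, which links caspase-8 to mitochondria, lay between 1.25 and 1.62 (0.913-fold, 0.620 to 1.35), and Bmf, known for release from the cytoskeleton, between 2.09 and 2.56 (1.08-fold, 0.726 to 1.62). Of the 5 tested BH3-only genes 2 read higher and 3 lower, and 0 passed the test.

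Downstream of mitochondria, Diablo encodes SMAC, which frees caspases from IAPs. It read 2.86 and 2.95 with the Hdac6 vector, against 3.24 and 2.85 with the empty vector, where empty vector 1 alone was high (0.907-fold, 0.620 to 1.33, adjusted p = 1.00). Apaf1, the scaffold of the apoptosome, lay between 0.01 and 0.71 (1.09-fold, 0.675 to 1.77). Cycs, which encodes cytochrome c, lay between 5.77 and 6.15 (0.995-fold, 0.667 to 1.48), and Htra2, a mitochondrial protease that also binds IAPs, between 5.68 and 5.93 (0.944-fold, 0.647 to 1.38). On the brightest probes the groups overlapped in all 4 of these genes.

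The apoptotic caspases likewise had overlapping groups on their brightest probes. Casp2, an initiator caspase, read 3.95 and 4.30 with the Hdac6 vector, against 4.25 and 4.28 with the empty vector, and only Hdac6 vector 1 was low (0.907-fold, 0.623 to 1.32, adjusted p = 1.00). Casp8, the initiator at death receptors, lay between 0.81 and 1.13 (1.01-fold, 0.685 to 1.48), and Casp9, the initiator at the apoptosome, between 2.69 and 3.35 (0.892-fold, 0.576 to 1.38). Casp6, an executioner caspase, lay between 2.78 and 3.11 (0.990-fold, 0.679 to 1.44). On the brightest probes no caspase of this set separated the groups. The second Casp2 probe did, by 0.12, with a log2 difference of 0.32 where the brightest gave -0.14.

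Casp1, Casp4 and Casp12 lie side by side on chromosome 9, where their probes start at 5307206, 5336658 and 5372258 (mm9, plus strand). Casp1, which cleaves gasdermin D and interleukin-1 beta, read 2.59 and 3.12 with the Hdac6 vector, against 2.67 and 2.75 with the empty vector. Only Hdac6 vector 2 was high (log2 difference 0.14, fold interval 0.738 to 1.65, adjusted p = 1.00). Casp12 read 1.00 and 0.78 with the Hdac6 vector, against 0.35 and 0.90 with the empty vector, and only empty vector 1 was low (1.20-fold, 0.784 to 1.85, adjusted p = 1.00). Casp4, the sensor of intracellular lipopolysaccharide also called caspase-11 in mice, lay between 3.90 and 4.08 (0.968-fold, 0.677 to 1.38). Gsdmd, the pore-forming substrate of the Casp1 and Casp4 proteins, lay between 4.33 and 4.57 (1.07-fold, 0.748 to 1.54). On the brightest probes the groups overlapped in Casp1, Casp4, Casp12 and Gsdmd alike. The second probes of Casp12 and Gsdmd read higher with the Hdac6 vector, with log2 differences of 0.34 and 0.37. Their groups lay 0.18 and 0.07 apart.

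Birc2 and Birc3, which encode the ubiquitin ligases cIAP1 and cIAP2, are also neighbours on chromosome 9. Birc3 read -3.49 and -3.11 with the Hdac6 vector, against -3.68 and -3.69 with the empty vector. The groups lay 0.20 apart, at 1.31-fold (0.785 to 2.18, limma adjusted p = 1.00). Birc2 read -0.03 and -0.25 with the Hdac6 vector, against 0.01 and -0.12 with the empty vector, with overlapping groups (0.944-fold, 0.632 to 1.41). Xiap, the direct inhibitor of caspases, lay between 2.85 and 3.68 (0.886-fold, 0.544 to 1.44), and its 2 highest arrays were Hdac6 vector 2 and empty vector 1.

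The last step, cleavage of nuclear DNA, is carried out by the nuclease that Dffb encodes, which the product of Dffa holds inactive. Dffb read -4.40 and -4.29 with the Hdac6 vector, against -3.99 and -4.30 with the empty vector. Empty vector 1 alone was high, at 0.871-fold (0.515 to 1.47, adjusted p = 1.00). Dffa lay between -2.51 and -2.27 (1.03-fold, 0.646 to 1.64).

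Other genes of cell death, listed by name from the pathway, gave similar counts. Of 65 such genes 64 were on the array and 56 were tested. None of the 56 passed the limma test, at an adjusted or an unadjusted p under 0.05, against 1.84% of all gene names at the unadjusted p. Their median log2 fold change was -0.04, with 24 higher and 32 lower, and the groups did not overlap in 2 that were higher and 6 that were lower with the Hdac6 vector, beside 12.3% and 12.8% of all gene names. The 4 with the smallest p were Traf3, a signalling adaptor (0.774-fold, 0.537 to 1.12), Pycard, the inflammasome adaptor ASC (1.44-fold, 0.828 to 2.50), Cradd, an adaptor of caspase-2 (1.31-fold, 0.843 to 2.04), and Tnfrsf25, a death receptor (0.728-fold, 0.408 to 1.30).

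Probes under 1 gene name often gave different values. Of the 23 genes with 2 or more tested probes, 19 had probes that differed in sign, and 4 (Cflar, Ripk1, Birc3 and Diablo) had probes whose log2 fold changes differed by at least 0.5. In Cflar the brightest probe gave -0.27 and the next gave 0.36. The second probe read 3.15 and 3.46 with the Hdac6 vector, against 2.60 and 3.28 with the empty vector, and the files list no RefSeq transcript of Cflar for it. In Ripk1 the brightest probe gave -0.10 and the dimmest 0.60, and on the dimmest probe empty vector 1 read -5.28 while the other 3 arrays read between -4.19 and -3.60. In Diablo the probes spanned -0.44 to 0.20, and in Birc3 -0.23 to 0.39. As in Cflar, no RefSeq transcript of the gene is listed for the Ripk1 probe at 0.60, the Diablo probe at -0.44 or the Birc3 probe at -0.23. On Hdac6 vector 2 those Diablo and Birc3 probes were not well above background. In 3 of these 4 genes, Diablo being the exception, the probe at 1 end of the span was the brightest one.

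**Figure D3:**
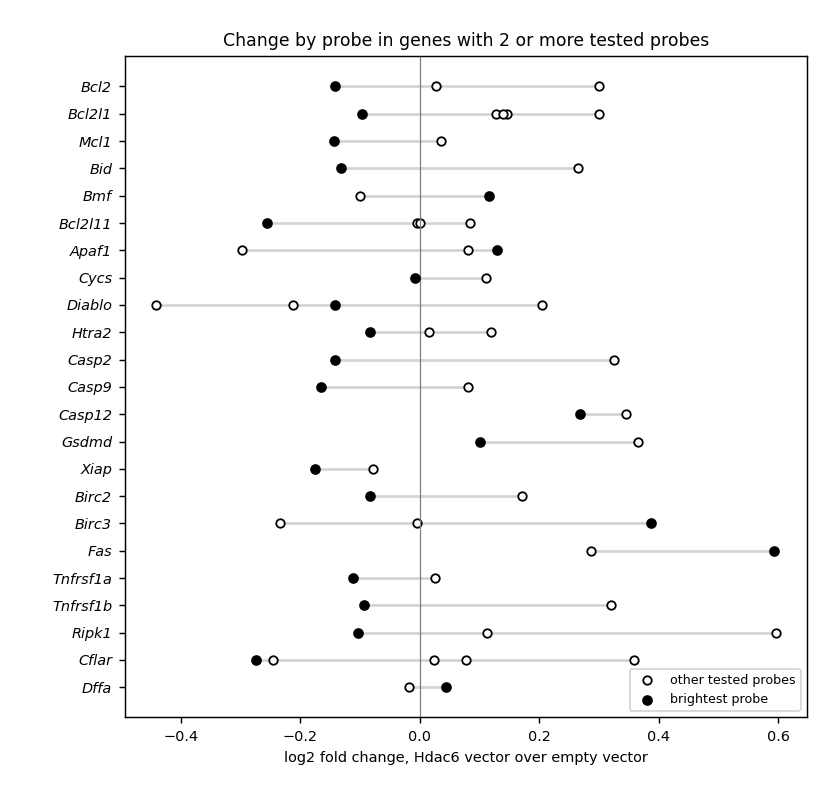
Log2 fold change of every tested probe, Hdac6 vector over empty vector, for the 23 genes with 2 or more tested probes, with the brightest probe filled and the others open. In 19 of the 23 rows the probes fall on both sides of 0.

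Single arrays also moved the values. With 1 array left out, genes whose groups overlap can change sign, and those whose groups do not overlap cannot. No apoptosis gene passed the adjusted test under any of the 15 alternative settings. Over the array as a whole the number of changed probes was 4 with all arrays, 302 without empty vector 2, 12 without empty vector 1, and 0 without either Hdac6 vector array. The widest ranges over the arrays left out were those of Mlkl (-0.34 to 0.57), Cflar (-0.70 to 0.15) and Bok (-0.38 to 0.43).

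**Figure D4:**
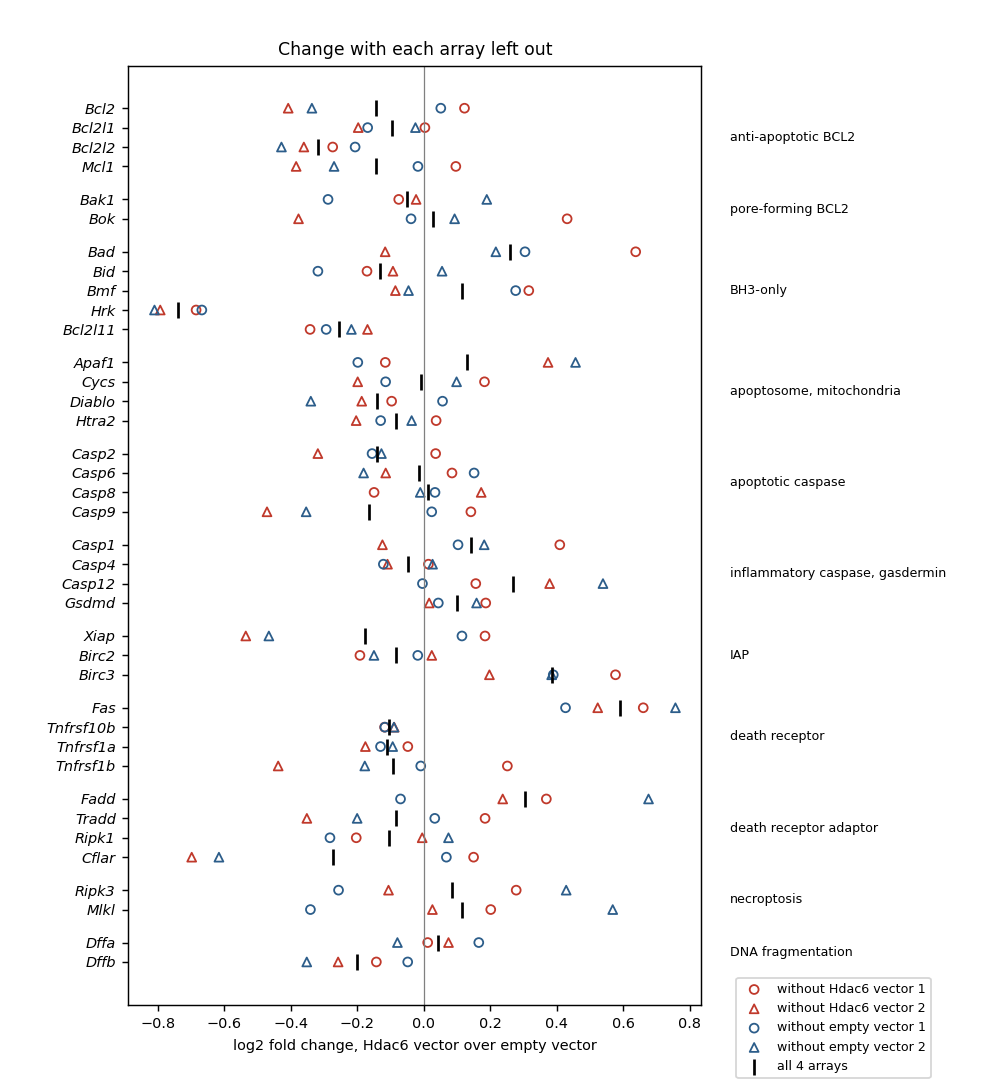
Log2 fold change of each tested gene, Hdac6 vector over empty vector, with all 4 arrays (black bar) and with each array left out in turn (open red for a Hdac6 vector array, open blue for an empty vector array). The symbols of Fas and Hrk, whose groups do not overlap, stay on 1 side of 0, while those of Mlkl run between -0.34 and 0.57.

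The authors' deposited table gives 1 log2 value for each gene name and array, and in it a few of these genes stood elsewhere. Birc2 in the authors' deposited table was at -2.34 and -0.14 for the Hdac6 vector, against -2.59 and -2.41 for the empty vector, a log2 difference of 1.26 where the brightest probe gave -0.08. Tnfrsf10b stood at -0.05 and -0.24 for the Hdac6 vector in the authors' deposited table, against -2.76 and 0.05 for the empty vector, a difference of 1.21 where the brightest probe gave -0.10. Birc3 differed by 0.89 and Diablo by 0.43 in the authors' deposited table, where the brightest probes gave 0.39 and -0.14. These comparisons with the table were chosen after their values were seen.

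The values that stood out fell on arrays where probes of the gene crossed the background flag. The second Birc2 probe was above background on 3 arrays and not on Hdac6 vector 2, the array with the high table value. For Tnfrsf10b the second probe was above background on empty vector 1 alone, the array with the low table value. For the 20 values of these genes with some probes above background and others not, the authors' deposited table equalled the mean over the probes above background, to within 0.01, in 20 of 20, and the mean over all probes in 0. In Birc2, Tnfrsf10b, Birc3 and Diablo the probes above background differed between arrays, so the table's values for these genes were means over different probes on different arrays.

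**Figure D5:**
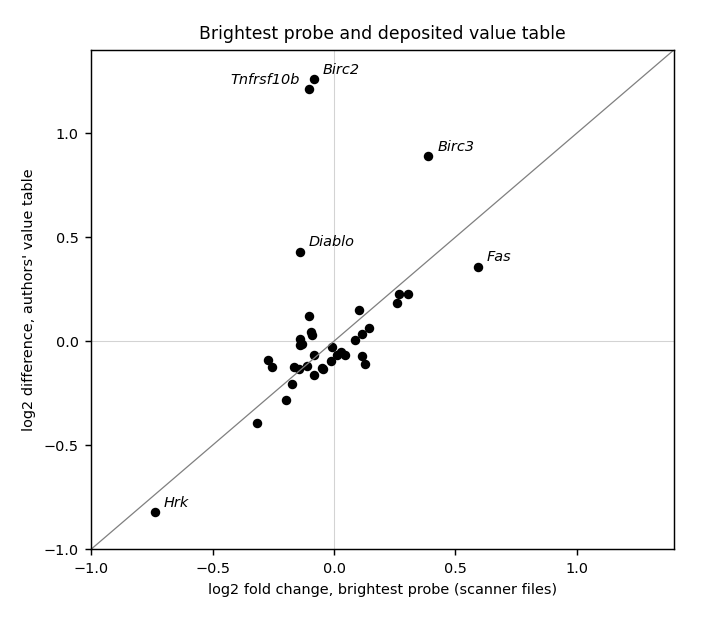
Log2 difference of each of the 38 tested genes, Hdac6 vector minus empty vector, from the authors' deposited value table (vertical axis) against the brightest probe in the scanner files (horizontal axis), with the line of equality in grey. Birc2 and Tnfrsf10b stand at 1.26 and 1.21 in the table and near 0 on the brightest probe.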

How the data were processed

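Per the file headers, the deposited scanner files hold spot intensity from Feature Extraction 11.5.1.1, with background subtracted and spatial trends removed within each array and no scaling across arrays, on build mm9. A second deposited file, the authors' value table, gives log2 values by a method not given in the sources used here, centred on a constant per array (column medians -3.71 and -3.68 for the Hdac6 vector, -3.78 and -3.67 for the empty vector). It served as an alternative. All arrays were on 1 slide.

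Log2 processed intensity was averaged over the spots of a probe, leaving out outlier spots, and each array's 75th percentile over 56605 probes was subtracted. Probes well above background on both arrays of at least 1 group were tested (35214) with limma 3.58.1 in R 4.3.3 (lmFit, eBayes with trend, two-sided, Benjamini-Hochberg over all tested probes, 2 residual degrees of freedom). The brightest tested probe stands for a gene. The functions were tested on simulated data.

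Members and gene lists were chosen with earlier results of these data known. Per-array values are given for the 6 genes with the smallest p in each direction, groups apart by at least 0.3, probes differing by at least 0.5, and genes not above background, and other genes by their range. Tnfrsf1a, Tnfrsf10b, Birc2 and the remarks on single arrays were chosen after their values were seen. Gene names were checked against RefSeq GRCm38.p6, used for names alone. Alternatives covered background correction, normalization, filters, spread model, replicate block, each array left out, the value table and the probe per gene. Same-numbered arrays did not deviate together (correlation of deviations -0.356 over tested probes), so replicate numbers were not taken as pairs.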

Additional observations from a re-analysis of the deposited data

Results flagged for a closer look

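In the authors' deposited table the log2 difference of Birc2, Hdac6 vector minus empty vector, was 1.26, a value outside the main measurement. Both Hdac6 vector values (-2.34 and -0.14) stood above both empty vector values (-2.59 and -2.41), while the brightest Birc2 probe gave -0.08. The value of -0.14, for Hdac6 vector 2, came from 1 of the 2 Birc2 probes, and the other arrays averaged both. With both probes averaged on every array the log2 difference was 0.044.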

How the results depend on the processing

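Under every alternative run, 0 apoptosis genes passed the adjusted limma test. Of the other cell death genes 0 passed in the runs that counted them. Those genes were not counted with the mean of all tested probes or with the brightest probe that lists a RefSeq transcript. Of the 38 genes 7 kept their sign under all 15 alternatives, some of which leave the fold change itself unchanged, and leaving out an array cannot turn a gene whose groups do not overlap. The median log2 fold change of the 38 genes ran between -0.17 (median scaling) and 0.09 (without Hdac6 vector 1), within the spread between replicates. The number of changed probes over the array, 4 as reported, was 29 with normexp, 2 with quantile normalization, 0 with median scaling, 2 with no trend of the spread and 19 in the authors' value table, and ran between 0 and 302 with 1 array left out. With the replicate number as a block it was 22, and the block changed no call among the apoptosis genes. A block pairing the numbers crosswise, added after seeing the data, gave 15. The following log2 fold changes changed sign. The cause was not tested, except for median scaling and for the table means of Birc2, Tnfrsf10b and Diablo described above. Bok and Casp8, with 1 probe each, differed from the main value by -0.08 in the value table. In the authors' value table: Bcl2l1 0.042, Bok -0.054, Bmf -0.072, Apaf1 -0.11, Diablo 0.43, Casp2 0.011, Casp8 -0.067, Birc2 1.26, Tnfrsf10b 1.21, Tnfrsf1b 0.031, Ripk1 0.12 and Dffa -0.068. With the mean of all tested probes: Bcl2 0.062, Bcl2l1 0.12, Bid 0.067, Apaf1 -0.029, Cycs 0.051, Htra2 0.018, Casp2 0.092, Birc2 0.044, Tnfrsf1b 0.11 and Ripk1 0.20. With the brightest probe that lists a RefSeq transcript, added after seeing the data: Mcl1 0.036. By the shift that median scaling gives every probe alike: Bok -0.064, Casp8 -0.079, Ripk3 -0.0048 and Dffa -0.048. With normexp: Bok -0.047, Casp8 -0.053 and Dffb 0.022. With quantile normalization: Cycs 0.0104, Casp6 0.027 and Dffa -0.019. With 1 array left out, the lowest and highest values were as follows: Bcl2 -0.41 to 0.12, Bcl2l1 -0.20 to 0.0039, Mcl1 -0.38 to 0.10, Bak1 -0.29 to 0.19, Bok -0.38 to 0.43, Bad -0.12 to 0.64, Bid -0.32 to 0.056, Bmf -0.085 to 0.32, Apaf1 -0.20 to 0.46, Cycs -0.20 to 0.18, Diablo -0.34 to 0.057, Htra2 -0.20 to 0.038, Casp2 -0.32 to 0.036, Casp6 -0.18 to 0.15, Casp8 -0.15 to 0.17, Casp9 -0.47 to 0.14, Casp1 -0.12 to 0.41, Casp4 -0.12 to 0.027, Casp12 -0.0034 to 0.54, Xiap -0.53 to 0.18, Birc2 -0.19 to 0.025, Tnfrsf1b -0.44 to 0.25, Fadd -0.069 to 0.68, Tradd -0.35 to 0.18, Ripk1 -0.28 to 0.075, Cflar -0.70 to 0.15, Ripk3 -0.26 to 0.43, Mlkl -0.34 to 0.57 and Dffa -0.079 to 0.17. Hrk kept its sign, but its log2 value was -0.099 with normexp, against -0.74 as reported. Signal over background limits the dim probes of Hrk, Birc3 and Dffb.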
